A study of Arabidopsis thaliana with 10 samples.

Results

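The 63 genes described here had their highest P1-12 transcript level at the lower of the doses of dexamethasone (Dex) tested, 0.025 μM, and a lower level both without Dex and at 0.25 μM. They were chosen by the measured values themselves. Counts were scaled to a library total of 1000000 (CPM), a gene counted as expressed with more than 1 CPM in at least 8 of the 10 libraries, and a member had a mean log2(CPM + 0.5) in P1-12 (+0.025 μM Dex) at least 0.5 above the means of P1-12 (+DMSO) and of P1-12 (+0.25 μM Dex), with its lower low-dose replicate above all libraries of those groups. Of 33602 loci in the table, 18451 were expressed, 1315 of these met the condition on replicates, and 63 met the whole rule, which is 0.341% of the expressed genes. All 63 are protein-coding genes. The difference between the low dose and the higher of the other P1-12 groups is called the low-dose excess below, and it is a description of how the genes were selected, so no test is attached to it.

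The plants were 8-d-old whole seedlings of Arabidopsis thaliana Col-0. P1-12 (pTA7002-Dexp:KRAB U6-26p:P1) carries a Dex-inducible dCas9-KRAB repressor and an sgRNA, named P1, expressed from the U6-26 promoter and aimed at MORF2, whose protein takes part in RNA editing in plastids. KRAB (pTA7002-Dexp:KRAB) carries the repressor alone. P1-12 was grown on DMSO (0.1%), on 0.025 μM Dex (the low dose) or on 0.25 μM Dex (the high dose), and KRAB on DMSO (0.1%) or on 0.25 μM Dex, with 2 libraries for each of these 5 groups. Each line descends from 1 transformant, so a feature of the line and an effect of its transgene cannot be told apart, there was no KRAB group at 0.025 μM Dex, and Dex itself is an active steroid in both lines. Library totals ran from 9139050 to 40544617 counts, and the P1-12 libraries at both Dex doses lay at the low end, so that 1 CPM there corresponded to between 9.14 and 10.9 counts. MORF2 was at 109 and 114 CPM (n = 2) in P1-12 (+DMSO), at 107 and 107 CPM at the low dose and at 54.4 and 58.5 CPM at 0.25 μM. Its low-dose level did not pass the test against DMSO (log2 fold change -0.10 ± 0.07 SE, edgeR quasi-likelihood test, Benjamini-Hochberg adjusted p = 0.469), while at 0.25 μM it was lower (-1.09 ± 0.07, adjusted p = 2.04e-08).

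Several branches of plant physiology meet among the members. Plant defensins and hydroxycinnamic acid amides are antimicrobial products that jasmonate and ethylene signalling switch on. The low-oxygen response is driven by group VII ethylene response factors, which are degraded when oxygen is present and which activate fermentation enzymes, haemoglobin and their own negative regulators when oxygen falls. Nitrate transporters of the NRT1 family move nitrate into and out of the xylem. In a whole seedling, fewer cells of a type and less RNA per cell cannot be told apart.

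The reference sequences of PDF1.2c, the member with the greatest low-dose excess, and of its neighbour PDF1.2 are shown because the level of each depends on assigning reads between near-identical copies. Both are from the RefSeq annotation of TAIR10.1, 5′ to 3′ from the start codon, and capitals mark the bases at which the copies differ.
PDF1.2c: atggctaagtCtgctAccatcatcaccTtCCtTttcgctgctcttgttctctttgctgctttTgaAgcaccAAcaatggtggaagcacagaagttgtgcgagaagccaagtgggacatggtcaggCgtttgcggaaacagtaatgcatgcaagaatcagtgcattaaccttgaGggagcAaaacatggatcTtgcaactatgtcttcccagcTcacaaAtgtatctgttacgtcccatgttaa
PDF1.2: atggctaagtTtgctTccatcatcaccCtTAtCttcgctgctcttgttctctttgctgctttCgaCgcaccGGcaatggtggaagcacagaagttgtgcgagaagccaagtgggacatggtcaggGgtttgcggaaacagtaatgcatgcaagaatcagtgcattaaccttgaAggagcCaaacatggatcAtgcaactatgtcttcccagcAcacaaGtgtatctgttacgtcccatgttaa
The coding sequences, 243 bases each, were identical at 227 positions (93.4%) and differed at 16. PDF1.2c lies on the minus strand at chr5:17908850-17909507 and PDF1.2 beside it at chr5:17906968-17907638, coordinates taken from the annotation because the count table has none.

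The low-dose excess of the 63 members ran from 0.51 to 1.48 on the log2 scale, with a median of 0.60, and 11 members had an excess of at least 1. The members were rather weakly expressed: the median of their mean level over the 10 libraries was 6.65 CPM, against 19.8 CPM over all expressed genes, and 18 members had a low-dose mean under 5 CPM. Their replicates also differed more. The median absolute difference between replicates was 0.35 log2 units in P1-12 (+DMSO) for the members and 0.11 for all expressed genes, and 0.24 against 0.12 at the low dose. In the other groups it was 0.21 to 0.26 for the members and 0.11 to 0.12 for all expressed genes. The opposite pattern, a trough at the low dose by the mirrored rule, was met by 49 genes.

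The threshold cut through a continuous range. Just inside it lay AT3G13672 with an excess of 0.508, AT4G40000 with 0.509 and AT4G33180 with 0.511. Just outside lay AT3G27510 with 0.499, AT5G52800 with 0.494 and the succinate dehydrogenase subunit gene SDH1-2 with 0.487. At AT3G13672, the last gene to enter, the low-dose libraries read 2.80 and 3.23 CPM and the other P1-12 libraries between 1.67 and 2.19 CPM.

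The members did not share 1 dose profile. At 0.25 μM Dex both libraries of 30 members lay below both DMSO libraries, those of 6 members lay above them, and those of 27 overlapped them. Over all expressed genes, 34.3% lay below and 45.5% above in this way. Since the rule used these libraries, nothing is read from the counts. The 6 members that stayed above DMSO at the high dose were PDF1.2c, AACT1, AT1G26380, AT4G24350, AIG2 and AT2G40435. In 39 members both low-dose libraries lay above all 8 other libraries, the KRAB libraries included. The rule fixes this for 4 of the 8, so the share to read it against is the 28.4% of the 1315 genes that met the condition on replicates, rather than the 2.02% of all expressed genes, and the required excess still sets the members apart from the 1315. The mean low-dose level was above KRAB (+DMSO) in 62 of the members, by a median of 0.58 log2 units, and above KRAB (+0.25 μM Dex) in 58, by a median of 0.44. The rule chose high low-dose values, so these counts too are fixed in part. Their share over all expressed genes was not taken, and nothing is read from them.

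**Figure D1:**
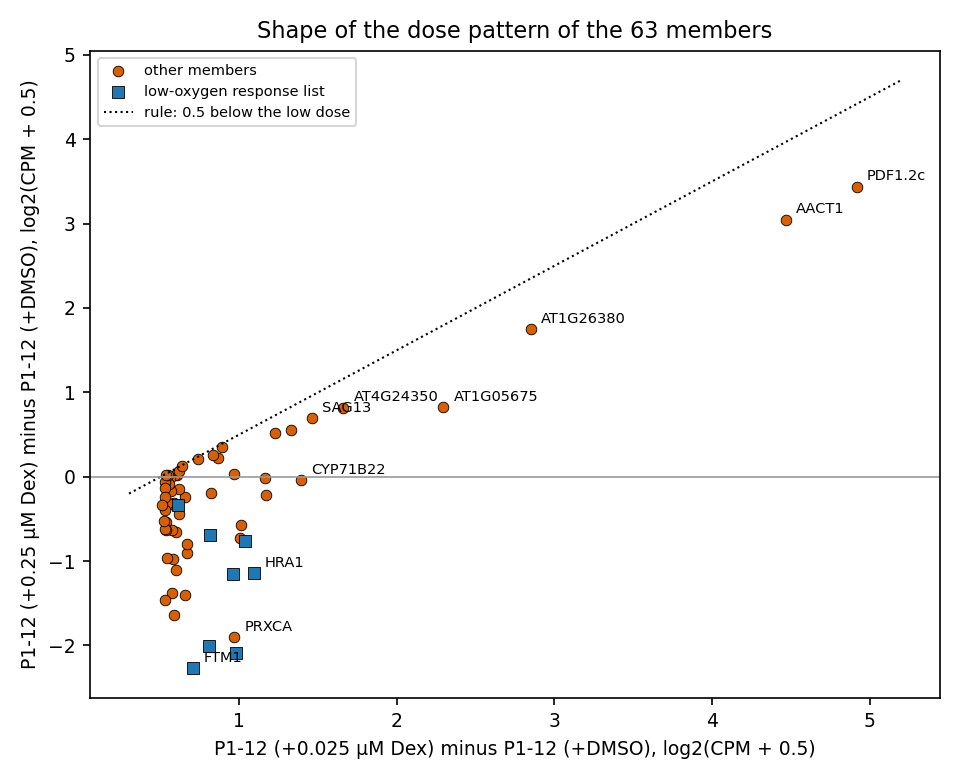
Difference from P1-12 (+DMSO) in mean log2(CPM + 0.5) at 0.025 μM Dex (horizontal axis) and at 0.25 μM Dex (vertical axis) for each of the 63 members, with the 8 genes of a low-oxygen response list as squares. The dotted line is the limit of the rule, and the points spread from PDF1.2c, up by 4.92 and 3.44, to FTM1, up by 0.71 at the low dose and at -2.27 at the high dose.

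For the description the members were grouped by their annotation after their values had been seen. The defence genes, 11 members, had excesses of 0.53 to 1.48 and included those with the steepest change. PDF1.2c, which encodes an antifungal plant defensin, was at 1.85 and 13.2 CPM in P1-12 (+DMSO), at 181 and 161 CPM at the low dose, at 67.0 and 55.5 CPM at 0.25 μM, at 5.62 and 4.87 CPM in KRAB (+DMSO) and at 17.9 and 8.62 CPM in KRAB (+0.25 μM Dex). The low-dose libraries stood 2.79-fold above the high-dose mean on the log2(CPM + 0.5) scale, and no group of P1-12 overlapped another. The DMSO replicates themselves differed severalfold, so the size of the rise from DMSO is poorly fixed.

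AACT1, annotated as an anthocyanin acyltransferase and known for coupling hydroxycinnamic acids to agmatine, followed the same course. It was at 1.77 and 9.36 CPM in P1-12 (+DMSO), 111 and 98.0 CPM at the low dose, 36.7 and 40.7 CPM at 0.25 μM, 13.3 and 6.18 CPM in KRAB (+DMSO) and 16.5 and 17.9 CPM in KRAB (+0.25 μM Dex). The same DMSO library, replicate 1 of P1-12, was the low one for AACT1 as for PDF1.2c. Of the other defence members, it was the lower one for AT1G26380, AIG2, WRKY40, SAG13, PAD3, AT1G56540 and CRK11. For PDF2.1 and AT3G05727 it was the higher one. The part of this library in the rises from DMSO was not tested. AT1G26380, an FAD-binding Berberine family oxidoreductase, read 0.926 and 1.90 CPM in P1-12 (+DMSO), 13.9 and 11.9 CPM at the low dose, 5.47 and 5.96 CPM at 0.25 μM, 1.12 and 0.706 CPM in KRAB (+DMSO) and 2.54 and 1.60 CPM in KRAB (+0.25 μM Dex). Again the order was DMSO, high dose, low dose with no overlap. AIG2, an avirulence-induced family gene, had a flatter course of 16.0 and 24.8, 46.5 and 47.9, and 29.0 and 28.3 CPM in P1-12 at DMSO, 0.025 and 0.25 μM.

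**Figure D2:**
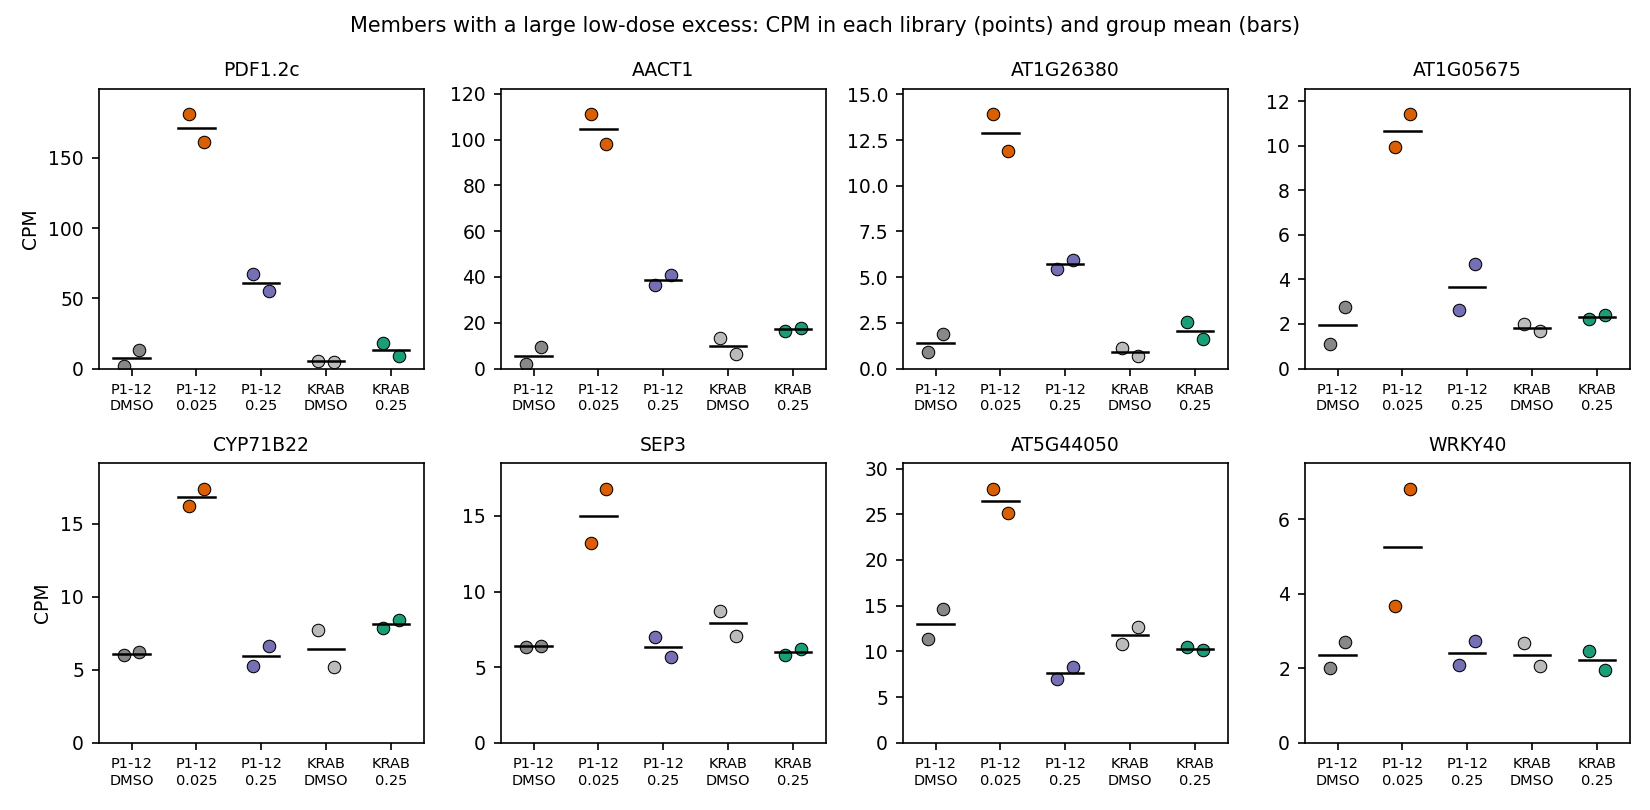
CPM of 8 members in each library, with the 2 replicates of a group as points and the group mean as a bar, on axes that start at 0 (P1-12 and KRAB, Dex dose in μM). PDF1.2c, AACT1 and AT1G26380 stay above P1-12 (+DMSO) at 0.25 μM, whereas CYP71B22, SEP3 and WRKY40 are back at the DMSO level there.

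WRKY40, a transcription factor that acts with its relative WRKY18 as a repressor in basal defence, was at 2.01 and 2.70 CPM in P1-12 (+DMSO), 3.67 and 6.82 CPM at the low dose and 2.08 and 2.74 CPM at 0.25 μM. All 4 KRAB libraries lay between 1.95 and 2.68 CPM. The higher low-dose value rests on 74 counts and the lower on 38. SAG13, a marker of senescence, was at 1.00 and 6.59 CPM without Dex, 8.39 and 8.57 CPM at the low dose and 5.58 and 4.1 CPM at 0.25 μM, so that the DMSO replicates straddled the high-dose libraries. PAD3, the cytochrome P450 of the last step of camalexin synthesis, was at 9.33 and 11.6 CPM, 14.3 and 16.2 CPM, and 6.89 and 6.35 CPM in the same order, and here the high dose was the lowest group. The disease resistance gene AT1G56540, the receptor-like kinase gene CRK11 and the defensin-like genes PDF2.1 and AT3G05727 had excesses between 0.57 and 0.82.

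On the lists of ethylene and jasmonate defence, rapid stress, and indole glucosinolate and camalexin genes, more genes beside the members were lower than higher at the low dose against 0.25 μM. The list of hydroxycinnamic acid amide genes, which holds AACT1, did not follow. Of its other tested genes, ADC2 was higher at the low dose than at 0.25 μM (log2 fold change 0.48, edgeR adjusted p = 0.00172). ADC1 did not pass that test (-0.06, edgeR adjusted p = 0.483). Both were higher at the low dose than with DMSO (0.73 and 0.38). On a list of ethylene and jasmonate defence genes, 10 genes other than PDF1.2c were tested. Of these, 7 rose from DMSO to the low dose, none fell, and of all tested genes 4.55% rose and 3.46% fell. Further, 7 rose and 1 fell from DMSO to 0.25 μM, where 28.3% rose and 29.2% fell. Between the doses, 6 were lower at the low dose, against 24.1% of all tested genes, and only ERF6, which encodes an ethylene response factor, was higher, against 26.4%. On a list of rapid stress, wound and touch genes, 23 genes other than WRKY40 were tested, of which 9 rose at the low dose, 17 rose at 0.25 μM and 14 were lower at the low dose than at 0.25 μM. On a list of indole glucosinolate and camalexin genes, 10 genes other than PAD3 were tested, of which 6 rose at the low dose, 8 rose at 0.25 μM and 5 were lower at the low dose than at 0.25 μM. In that list MYB34, a regulator of indole glucosinolate synthesis, shared the direction of PAD3 between the doses and was higher at the low dose (log2 fold change 1.66 over 0.25 μM, edgeR adjusted p = 2.42e-08), but it did not pass the test against DMSO (-0.12, adjusted p = 0.480).

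Relatives of 8 members were picked after the values were seen, and the difference between a member and its relative was not tested. Of these relatives, AT4G10270 and NRT1.5, which are members themselves, had excesses of 0.81 and 0.60 and PCO2 had 0.40. In PRXCB and PDF1.2 the excess was 0.04 and -0.01, and in the other 3 it was -1.23 to -1.43. PDF1.2, the neighbouring copy of PDF1.2c, was at 2.01 and 13.4 CPM in P1-12 (+DMSO), 352 and 404 CPM at the low dose and 398 and 364 CPM at 0.25 μM. Its log2 fold change from DMSO to the low dose was 5.58 ± 0.40, beside 4.48 ± 0.40 for PDF1.2c. Between the doses it did not pass the test, with a log2 fold change of 0.06 ± 0.29 (SE, n = 2 against 2, edgeR adjusted p = 0.887). Summed over both copies the levels were 533 and 565 CPM at the low dose and 465 and 419 CPM at 0.25 μM, an excess of 0.31 that would not meet the rule. WRKY18 was at 21.8 and 27.4 CPM in P1-12 (+DMSO), 61.1 and 71.4 CPM at the low dose and 178 and 178 CPM at 0.25 μM, so it went on rising (log2 fold change of the low dose over 0.25 μM -1.36 ± 0.13, edgeR adjusted p = 1.11e-06) where WRKY40 went back.

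AT1G05675, a UDP-glycosyltransferase gene at chr1:1701116-1702749, was at 1.08 and 2.78 CPM in P1-12 (+DMSO), 9.94 and 11.4 CPM at the low dose, 2.63 and 4.69 CPM at 0.25 μM and between 1.68 and 2.40 CPM in KRAB. Both low-dose libraries were far above the 8 others. Its neighbour UGT74E2, which glycosylates the auxin indole-3-butyric acid and shares 89.5% of the aligned coding bases, was instead at 11.4 and 9.40 CPM at the low dose and at 25.4 and 24.4 CPM at 0.25 μM (-1.19 ± 0.17 between the doses, edgeR adjusted p = 4.22e-05). The summed level of this pair was higher at 0.25 μM, with 28 and 29.1 CPM against 21.3 and 20.8 CPM. AT1G26380 and its relative AT1G26420, with 86.4% of aligned coding bases identical, also went apart, since AT1G26420 was at 3.86 and 5.34 CPM at the low dose and at 10.7 and 12.8 CPM at 0.25 μM. Reads that match more than 1 copy could be split or dropped in the counting, so the levels of these copies are uncertain one by one.

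**Figure D3:**
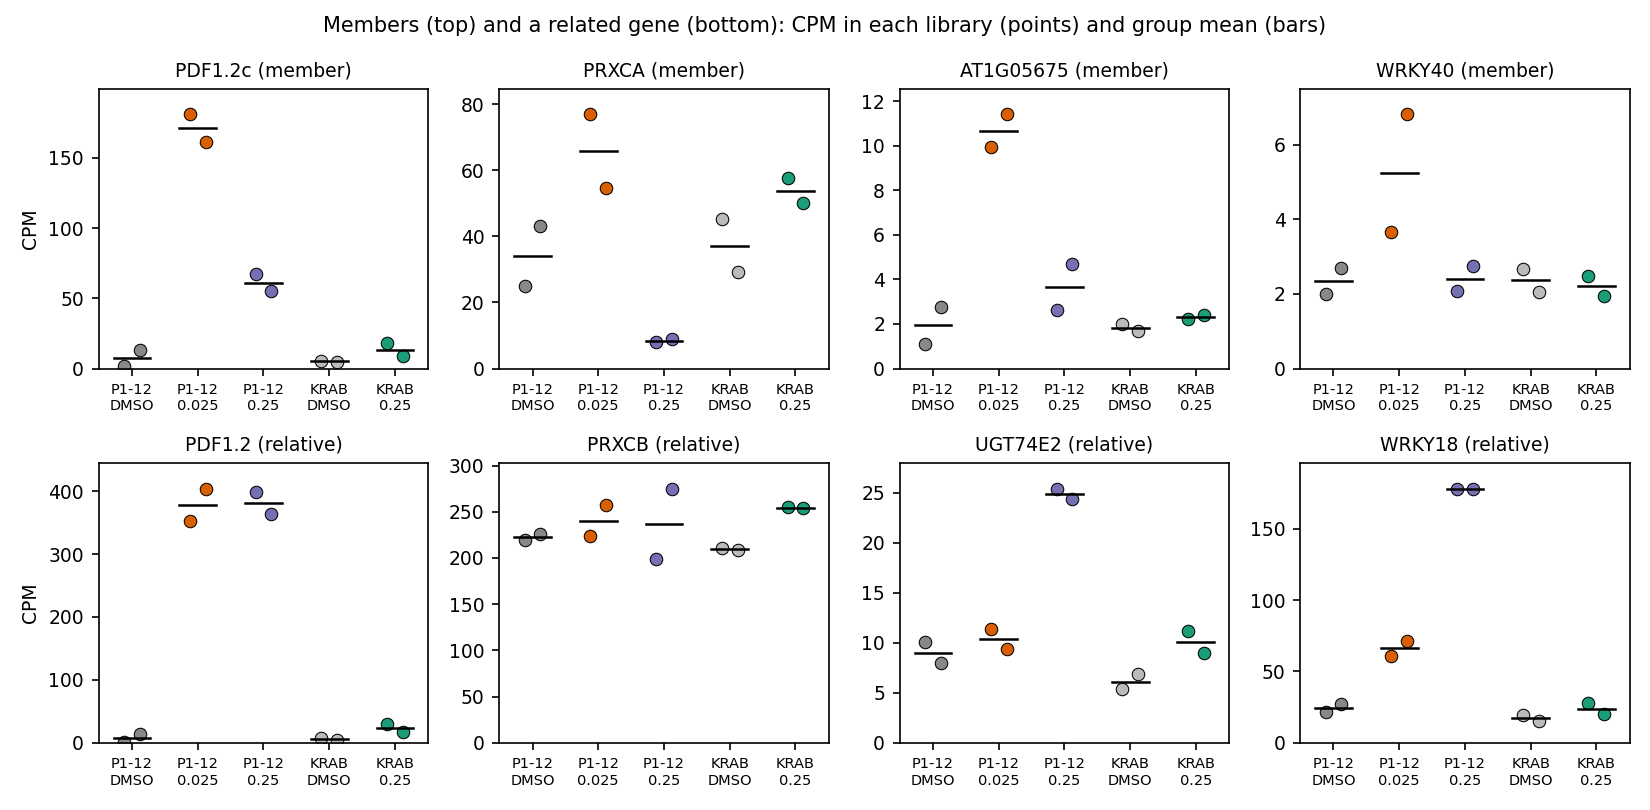
CPM of 4 members (top row) and of a related gene of each (bottom row) in every library, with the 2 replicates of a group as points and the mean as a bar, on axes that start at 0. PDF1.2, UGT74E2 and WRKY18 are as high or higher at 0.25 μM Dex than at 0.025 μM, and PRXCB is spread over 199 to 275 CPM with no separation of the groups of P1-12.

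Genes for oxidation and export of small molecules made up the next group with AT1G05675. In all 4 of them both low-dose libraries stood above the 8 others, as in 39 of all 63 members. Of the 1315 genes that met the condition on replicates, 28.4% did so. CYP71B22, a cytochrome P450 gene, was at 6.02 and 6.19 CPM in P1-12 (+DMSO), 16.2 and 17.4 CPM at the low dose, 5.25 and 6.64 CPM at 0.25 μM, 7.69 and 5.18 CPM in KRAB (+DMSO) and 7.84 and 8.44 CPM in KRAB (+0.25 μM Dex). Replicates were close and the low dose alone was raised, 2.62-fold above the higher of the other P1-12 groups. AT5G44050, a MATE family efflux carrier gene, was at 11.4 and 14.6 CPM, 27.8 and 25.1 CPM, and 7 and 8.3 CPM in P1-12 at DMSO, 0.025 and 0.25 μM, and between 10.1 and 12.7 CPM in KRAB. It was thus highest at the low dose and lowest at the high dose. ABCG40, a transporter of the pleiotropic drug resistance type that imports abscisic acid, was at 0.694 and 3.02 CPM without Dex, 4.92 and 3.41 CPM at the low dose and 1.09 and 1.47 CPM at 0.25 μM. Its margin was narrow, since the higher DMSO library lay just under the lower low-dose one.

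Among the 15 members with the greatest excess were 4 genes known from the low-oxygen response. A list of 50 genes of that response was then written from general knowledge, after these values were seen, and 8 members are on it. HRA1, a trihelix factor that restrains the group VII ethylene response factors, was at 13.6 and 8.49 CPM in P1-12 (+DMSO), 18.6 and 29.6 CPM at the low dose, 4.92 and 4.3 CPM at 0.25 μM, 18.7 and 9.55 CPM in KRAB (+DMSO) and 19.7 and 22.9 CPM in KRAB (+0.25 μM Dex). The low dose was above the other P1-12 groups, but its lower library lay within the KRAB range. Its mean was 0.79 log2 units above KRAB (+DMSO) and 0.14 above KRAB (+0.25 μM Dex). The high dose was the lowest of all. PCO1, a plant cysteine oxidase that marks the same factors for degradation when oxygen is present, was at 5.63 and 3.81 CPM, 8.01 and 12.5 CPM, and 1.97 and 3.22 CPM in P1-12 at DMSO, 0.025 and 0.25 μM, and between 4.27 and 11.4 CPM in KRAB. HB1, a haemoglobin that scavenges nitric oxide when oxygen is low, was at 14.1 and 6.90 CPM, 17.4 and 22.5 CPM, and 3.72 and 4.69 CPM, and between 9.38 and 30.4 CPM in KRAB.

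The other genes of this set had the same order. AT4G33560, of the wound-responsive family, was at 4.32 and 2.22 CPM in P1-12 (+DMSO), at 5.11 and 8.57 CPM at the low dose and at 0.109 and 0.684 CPM at 0.25 μM, which are 1 and 7 counts. AT4G10270, of the same family, was at 4.32 and 2.22 CPM, 4.44 and 7.65 CPM, and 0.328 and 0.488 CPM. FTM1, annotated as a stearoyl-acyl carrier protein desaturase, was at 14.6 and 10.3 CPM, 17.4 and 23.8 CPM, and 2.74 and 1.66 CPM. LBD41, a LOB domain transcription factor, and the kelch-repeat gene AT3G27220 complete the set, with excesses of 0.82 and 0.61. At the high dose 7 of the 8 had both libraries below both DMSO libraries, beside 34.3% of expressed genes, and 1 overlapped them. This is a description only, since the rule used these libraries.

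In none of the 8 did both low-dose libraries lie above all KRAB libraries. The mean low-dose level of the 8 ran from -0.06 to 0.79 log2 units relative to KRAB (+DMSO). Relative to KRAB (+0.25 μM Dex) it ran from -0.45 to 0.14. Their replicates also moved together within groups. In P1-12 (+DMSO) replicate 1 was above replicate 2 in all 8, by a median of 0.65 log2 units, in KRAB (+DMSO) replicate 1 was above replicate 2 in all 8, by a median of 0.95, and at the low dose replicate 2 was above replicate 1 in all 8, with a median of -0.58 for replicate 1 minus replicate 2. These differences within a group are nearly as large as the low-dose excess of the set, 0.61 to 1.09. Their part in the result was not tested.

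**Figure D4:**
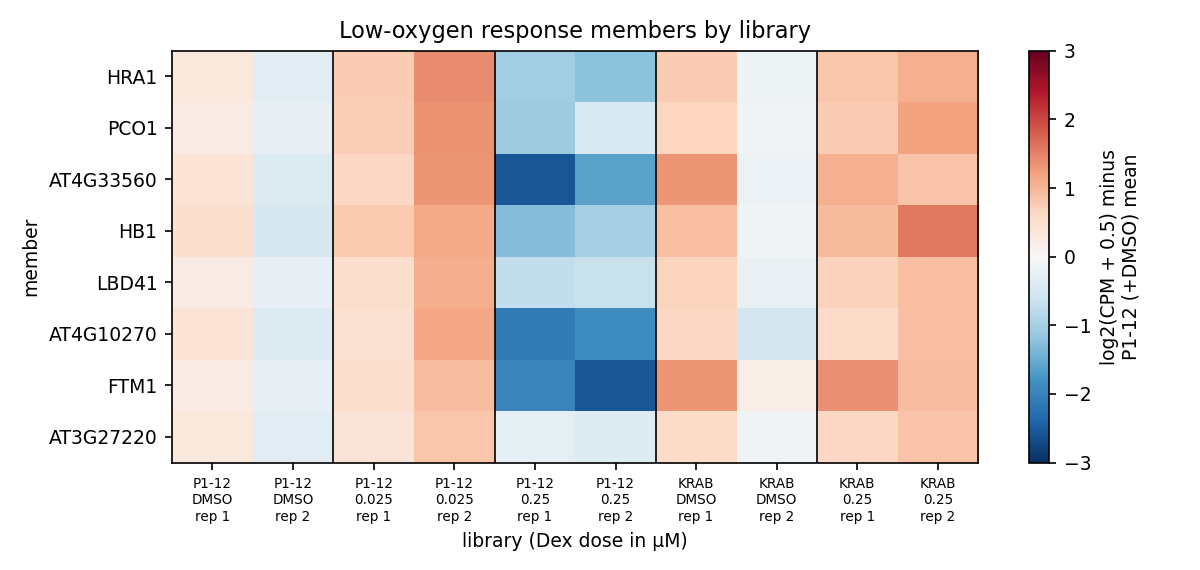
Log2(CPM + 0.5) of the 8 low-oxygen response members in each of the 10 libraries, minus the mean of P1-12 (+DMSO), as colour from blue (lower) to red (higher), with Dex doses in μM. The P1-12 libraries at 0.25 μM are the lowest for every gene but AT3G27220, and replicate 1 of KRAB (+DMSO) is nearer to the Dex-treated KRAB libraries than to its own replicate 2.

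The rest of the low-oxygen list did not follow these 8. The rule fixes this in part, since it took the low-dose peaks out of the rest. Of its 36 other expressed genes, 23 had both 0.25 μM libraries above both DMSO libraries and 8 had both below. Over all expressed genes these shares were 45.5% and 34.3%. Of the 31 others that were tested, 5 rose and 2 fell from DMSO to the low dose, beside 4.55% and 3.46% of all tested genes. From DMSO to 0.25 μM 17 rose and 7 fell, beside 28.3% and 29.2%. Between the doses, 16 were lower and 6 higher at the low dose, beside 24.1% and 26.4%. The fermentation gene ADH1, an alcohol dehydrogenase, was at 11.2 and 6.59 CPM in P1-12 (+DMSO), 12.3 and 13.7 CPM at the low dose and 27.4 and 19.0 CPM at 0.25 μM, and the pyruvate decarboxylase gene PDC2 was at 92.9 and 104, 152 and 157, and 272 and 273 CPM. PCO2, the relative of PCO1, was at 4.16 and 2.38, 3.57 and 5.25, and 0.547 and 1.95 CPM and so leaned the same way as PCO1, with an excess of 0.40.

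NRT1.8, which takes nitrate back out of the xylem, was at 4.01 and 8.09 CPM in P1-12 (+DMSO), 14.9 and 15.4 CPM at the low dose, 11.5 and 6.45 CPM at 0.25 μM, 7.17 and 4.61 CPM in KRAB (+DMSO) and 10.4 and 7.82 CPM in KRAB (+0.25 μM Dex). NRT1.5, which loads nitrate into the xylem of the root, was the most abundant member at the low dose, with 269 and 356 CPM against 205 and 204 CPM in P1-12 (+DMSO) and 135 and 125 CPM at 0.25 μM. A KRAB (+DMSO) library reached 289 CPM, within the range of the low dose. At the high dose the NRT1.8 libraries overlapped those of DMSO, whereas both NRT1.5 libraries lay below them. CYP735A2, which makes trans-zeatin cytokinins, was at 9.33 and 9.52 CPM, 16.2 and 12.5 CPM, and 3.06 and 3.61 CPM, and GDU2, of the glutamine dumper family, rests on few counts, 33 and 29 at the low dose and 9 and 0 at 0.25 μM.

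PRXCA, a cell wall peroxidase gene, had one of the deepest falls at the high dose. It was at 25.1 and 43.1 CPM in P1-12 (+DMSO), 76.9 and 54.7 CPM at the low dose, 7.99 and 8.89 CPM at 0.25 μM, 45.2 and 29.2 CPM in KRAB (+DMSO) and 57.6 and 50 CPM in KRAB (+0.25 μM Dex). The low-dose replicates overlapped the Dex-treated KRAB libraries. The next gene, PRXCB, shares 90.5% of the aligned coding bases and passed no test among the P1-12 groups, with a fitted log2 difference between the doses of 0.09 ± 0.11 (edgeR adjusted p = 0.532). NRT1.5, CYP735A2 and PRXCA are known for their expression in roots, so the level of root marker genes was set beside them. The summed level of 21 root markers, all detected, was 299 to 315 CPM in P1-12 (+DMSO), 336 to 355 CPM at the low dose and 362 to 420 CPM at 0.25 μM, and 296 to 329 CPM in KRAB. The sum was higher at 0.25 μM, but not the list as a whole, since of the 17 root markers tested 3 were higher and 3 lower at 0.25 μM than with DMSO, with a median log2 fold change of 0.02. The summed level of 19 shoot markers was 204 to 217, 212 to 226 and 258 to 269 CPM in the P1-12 groups and 208 to 220 CPM in KRAB, with the stem cell genes WUS and CLV3 at 0 counts in the Dex-treated groups and WUS also in P1-12 (+DMSO). Of the 10 shoot markers tested, 3 were higher and 5 lower at 0.25 μM than with DMSO in P1-12, with a median of -0.15. The part of the root share in the results was not tested.

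Regulators of flowering, the clock and light made a small group. SEP3, a MADS-box factor of floral organ identity, was at 6.32 and 6.43 CPM in P1-12 (+DMSO), 13.2 and 16.8 CPM at the low dose, 7 and 5.67 CPM at 0.25 μM, 8.73 and 7.06 CPM in KRAB (+DMSO) and 5.80 and 6.22 CPM in KRAB (+0.25 μM Dex). Only the low dose was raised, above all 8 other libraries. ATC, a relative of the floral repressor TFL1, was at 6.79 and 9.44 CPM, 12.0 and 18.7 CPM, and 7.77 and 11.4 CPM, and between 7.06 and 12.1 CPM in KRAB. LNK3, of a family that acts with the morning clock factors, was at 6.25 and 5.47, 10.4 and 9.77, and 5.91 and 7.91 CPM in P1-12, and at 2.51 to 6.13 CPM in KRAB. On the list of morning clock genes it is the only member, and of the 10 other tested genes 2 rose and none fell from DMSO to the low dose, beside 4.55% and 3.46% of all tested genes, while 3 were higher and 2 lower at the low dose than at 0.25 μM, beside 26.4% and 24.1%. ELIP2, a chlorophyll-binding early light-induced protein gene, was at 2.78 and 2.22, 4.15 and 4.33, and 1.64 and 0.879 CPM.

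The kinase genes AT5G49770 and AT5G59680, both of the leucine-rich repeat type, were close between low-dose replicates, at 6.46 and 6.45 CPM and at 15.1 and 17.1 CPM, and both had their high-dose libraries below DMSO. RBK1, a kinase that binds ROP GTPases, was at 7.10 and 7.78, 9.65 and 12.7, and 6.89 and 8.30 CPM. The remaining 29 members had other annotations, with excesses of 0.51 to 1.01 and low-dose means of 1.74 to 255 CPM. Over all expressed genes, the libraries of 34.3% lay below DMSO at the high dose and those of 45.5% above. Of these 29 members 15 lay below, 2 above and 12 across DMSO. The greatest excess among them, 1.01, was that of the RING-type gene AT3G20395, at 3.39 and 3.33, 6.27 and 8.48, and 1.64 and 2.64 CPM in P1-12 and at 3.87 to 5.86 CPM in KRAB. The phosphorylase family gene AT4G24350, at 26.9 and 50.3, 122 and 113, and 63.1 and 67.7 CPM, and ML3, an MD-2-related lipid recognition protein gene, at 125 and 163, 248 and 262, and 160 and 181 CPM, were the most abundant.

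The response of the members to Dex in KRAB asked whether they also moved in plants with the repressor and no sgRNA. The rule used the KRAB libraries only through its expression filter, so the test is not fully independent of the selection. For this test genes needed more than 2 CPM in at least 9 libraries, which 41 of the 63 members and 16721 genes in all met. Of the 41, 1 was higher with 0.25 μM Dex, which is 2.44% of them and close to the 2.06% of all tested genes that were higher, and 2 were lower, beside 0.813% of all tested genes. AT1G80130, a tetratricopeptide repeat gene, was higher, with 4.84 and 1.55 CPM in KRAB (+DMSO) and 6.46 and 8.79 CPM in KRAB (+0.25 μM Dex) (log2 fold change 1.41 ± 0.33 SE, edgeR quasi-likelihood test, adjusted p = 0.0389). With 1.55 CPM in a DMSO library, it met the filter of the test only with both Dex-treated KRAB libraries counted. The kinase gene AT5G59680 was lower, with 10.4 and 11.1 CPM against 5.03 and 7.02 CPM (-0.97 ± 0.17, adjusted p = 0.00807). The cytochrome P450 gene CYP702A5 was lower as well, with 17.0 and 15.5 CPM against 7.40 and 11.5 CPM (-0.91 ± 0.17, adjusted p = 0.00834).

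For these 3 genes the direction in KRAB was set beside that in P1-12. AT5G59680 and CYP702A5 were lower with 0.25 μM Dex than with DMSO in both libraries of both lines, and AT1G80130 was lower in P1-12 and higher in KRAB. Over all 63 members, 13 had both high-dose libraries of P1-12 below and both Dex-treated KRAB libraries above their DMSO libraries, as had 8.53% of expressed genes. But 30 members had both high-dose libraries below DMSO, beside 34.3% of expressed genes, and the rule used these libraries. The reverse, P1-12 above and KRAB below, was seen in 0 members and in 6.63% of expressed genes, but only 6 members had both high-dose libraries above DMSO at all. None of the 3 calls withstood every omission of a library. The call of AT1G80130 was lost in 7 of the 10 fits that left out a library, and without replicate 2 of KRAB (+DMSO) its log2 fold change was 0.56 (edgeR adjusted p = 0.51). The calls of all 3 were lost without that library or without replicate 1 of KRAB (+0.25 μM Dex), the most deeply sequenced libraries.

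Without adjustment, 16 of the 41 were higher and 6 lower in KRAB at p under 0.05, beside 9.23% and 8.07% of all tested genes, and the median log2 fold change of the 41 was 0.19, beside -0.004 over all tested genes. PDF1.2c was at 1.47 ± 0.45 (adjusted p = 0.104), AACT1 at 0.92 ± 0.35 (0.192 adjusted) and HB1 at 0.84 ± 0.29 (0.157 adjusted), none of which passed, and SEP3 (-0.42 ± 0.16, adjusted p = 0.197) and AT5G44050 (-0.25 ± 0.14, adjusted p = 0.370) had negative values. CYP71B22 and WRKY40 were at 0.36 ± 0.17 and -0.01 ± 0.28. The members dropped by the filter for low counts, 22 in all, were tested with the filter of the selection rule instead, which added AT1G26380 (1.38 ± 0.34, adjusted p = 0.0485) and SAG13 (3.88 ± 0.85, adjusted p = 0.0277) to those called higher. Both genes met the expression filter of the rule only with their Dex-treated KRAB libraries counted. Their level in KRAB thus had a part in their selection, and nothing is read from these added calls. SAG13 was at 0.778 and 0.101 CPM in KRAB (+DMSO) and 6.17 and 1.78 CPM in KRAB (+0.25 μM Dex), so its size rests on 9 and 3 counts in the controls. For PDF1.2, the copy of PDF1.2c that is no member, the rise in KRAB passed (2.17 ± 0.43, adjusted p = 0.0144).

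**Figure D5:**
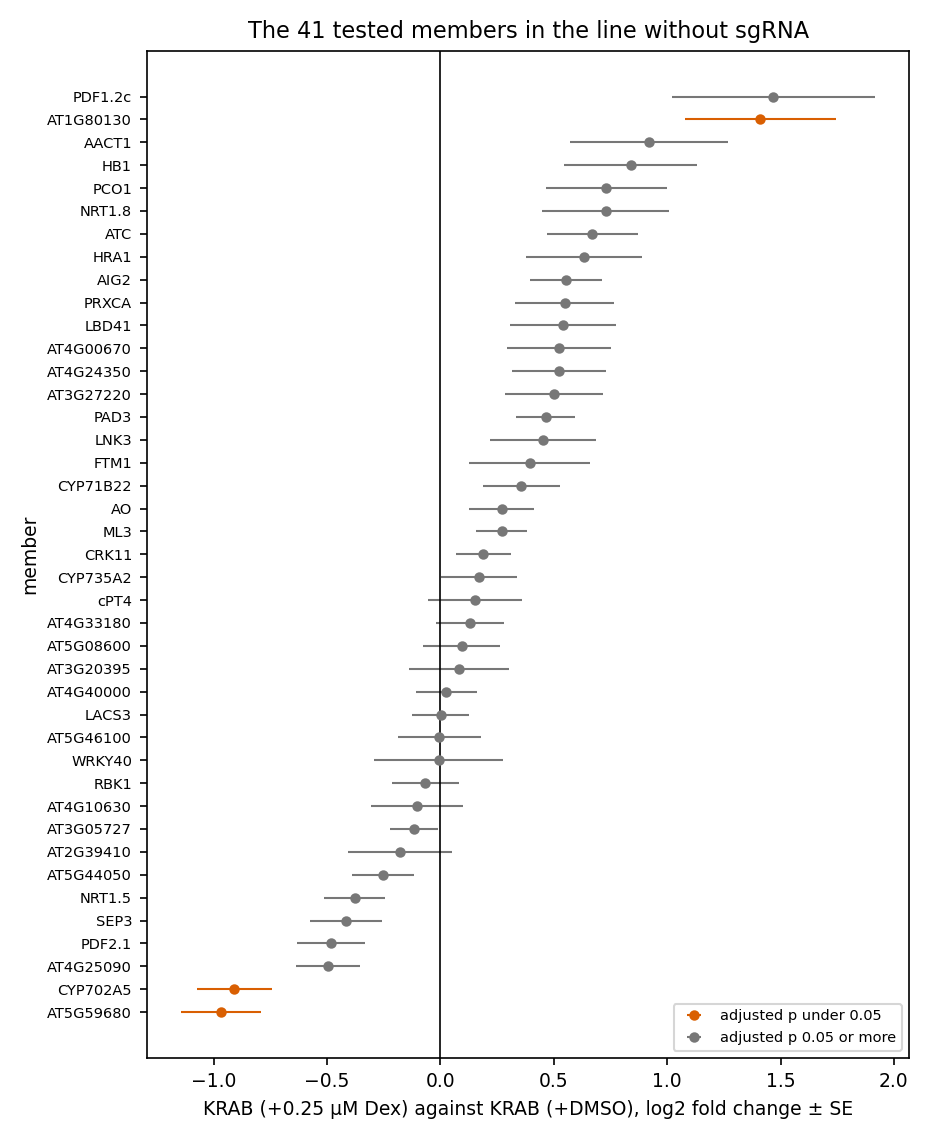
Log2 fold change between KRAB (+0.25 μM Dex) and KRAB (+DMSO) with its SE from the edgeR fit (2 libraries per group) for the 41 members that were tested, in order of size. Coloured points had an adjusted p under 0.05, which were AT1G80130 above 0 and CYP702A5 and AT5G59680 below it.

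The contrasts that made the selection are given only for completeness. With edgeR, 23 of the 41 tested members (56.1%) were called higher at the low dose than with DMSO, beside 4.55% of all tested genes, and 39 (95.1%) were called higher at the low dose than at 0.25 μM, beside 26.4%. These calls restate the rule.

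In the 500 bases upstream of the annotated start, 13 short motifs were searched on both strands. The GCC-box (GCCGCC), bound by ethylene response factors, was found in 2 of the 63 members (3.17%) and in 4.12% of 27443 promoters. The W-box core (TTGACC), bound by WRKY factors, was found in 12 members (19.0%) and in 20.7% of all promoters, and the G-box (CACGTG) in 10 members (15.9%) and 9.35% of all promoters. The MYC-bound G-box variant (CACATG) was in 27% of the members and 21.1% of all promoters, the ABRE (ACGTGGC), which can overlap a G-box, in 9.52% and 4.72%, and the as-1 core (TGACGT) in 17.5% and 12.7%. The CCA1-binding site (AAAAATCT) was in 14.3% and 12.5%, the site II element (TGGGCC) in 14.3% and 17.8%, and the DRE core (ACCGAC) in 9.52% and 8.35%. The evening element (AAAATATCT) was in 3.17% and 4.44%, the telo-box (AAACCCTAA) in 1.59% and 4.43%, GATATTC in 1.59% and 6.95%, and the CGCG element (ACGCGT) in 0 members and 2.82% of all promoters. The GCC-boxes of AACT1 and of PDF1.2 are shown because both genes belong to defence pathways under ethylene response factors. The motif is in capitals, on the strand of the gene and in TAIR10.1 coordinates. PDF1.2 is no member, and the other member with the motif was AT4G33560 of the low-oxygen set. Control of the members by these factors was not tested. No GCCGCC was found in the 500 bases before PDF1.2c, which says only that these letters are not in this window.
AACT1, chr5:24608569-24608604, plus strand: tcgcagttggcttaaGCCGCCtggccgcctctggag
PDF1.2, chr5:17907840-17907875, minus strand: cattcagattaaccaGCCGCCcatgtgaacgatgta
In AACT1 a further copy of the motif follows 8 bases after the start of the first, so the pair lies 21 and 13 bases before the annotated start, and in PDF1.2 the motif begins 222 bases before it.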

How the data were processed

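RNA-seq of 10 libraries was used, 2 for each of the 5 groups. According to the labels and the methods of the study, paired-end reads passed Trimmomatic, TopHat2 (TAIR10) and HTSeq, and the authors deposited whole-number counts per locus that were not normalized. Tool versions and the HTSeq strandedness are not given in the sources used here, so reads of the 17 members that overlap another annotated gene could belong to either. Replicates are described as biological in the methods of the study, without saying whether separate cultures were grown, so p-values measure the spread between these libraries. Intervals and floors would cover counting error only.

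Members were chosen by the rule given at the start of the report, with a pseudocount of 0.5. The members, the gene lists and the groups were chosen with earlier results of these data known. Named genes were the 15 members with the greatest excess, members on a list, members called in KRAB, the 3 nearest to the threshold on either side, the 3 highest and 3 lowest in P1-12 (+0.25 μM Dex) minus DMSO, and MORF2, and any other gene was named after its values were seen. Tests used edgeR 4.0.16 in R 4.3.3 (quasi-likelihood F-test, 1 mean per group, TMM factors, Benjamini-Hochberg adjusted p under 0.05 over all 16721 tested genes, a common coefficient of variation of 6.54%), and DESeq2 1.42.0 was an alternative. The fit and the rule were tested on simulated data. Names, coordinates and sequences come from RefSeq on TAIR10.1, which matched 32835 of 33602 loci and all 63 members, while MORF2 was named after the study. Python 3.11.15 and Biopython 1.88 were used for sequences.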

Additional observations from a re-analysis of the deposited data

Results flagged for a closer look

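Of the 63 members, 13 had both P1-12 (+0.25 μM Dex) libraries below both P1-12 (+DMSO) libraries and both KRAB (+0.25 μM Dex) libraries above both KRAB (+DMSO) libraries, beside 8.53% of all expressed genes. None had the reverse, which 6.63% of expressed genes had, but only 6 members had both P1-12 (+0.25 μM Dex) libraries above DMSO at all. The 13 were among the 30 members with both high-dose P1-12 libraries below DMSO, a condition that 6321 expressed genes met, of which 1574 had the whole pattern. The rule used the P1-12 libraries, and the difference between the lines was not tested. Of the 13, those that were already among the named genes are given here. In P1-12 the log2 difference between 0.25 μM Dex and DMSO was -1.14 for HRA1, -0.76 for PCO1, -1.15 for HB1, -1.91 for PRXCA, -0.44 for AT1G80130 and -0.61 for PAD3. In KRAB the corresponding differences were 0.65, 0.71, 0.86, 0.56, 1.28 and 0.50, in the same order of genes. For HRA1, PCO1 and HB1, replicate 1 of KRAB (+DMSO) lay just under a Dex-treated KRAB library. It was at 18.7, 7.52 and 18.8 CPM against 19.7, 8.16 and 19.7 CPM, so these differences rest mainly on replicate 2 of KRAB (+DMSO). By the edgeR test in KRAB only AT1G80130 passed (adjusted p = 0.0389), and the others were at adjusted p of 0.0801 to 0.221.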

How the results depend on the processing

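The rule gave 63 members and 49 trough genes. When 9 libraries had to exceed 2 CPM it gave 41 and 30, without a filter on low counts 134 and 85, and with a threshold of 1 it gave 11 and 3. Without any 1 of the P1-12 libraries there were 60 to 119 members and 49 to 139 trough genes, and without replicate 1 of P1-12 (+0.025 μM Dex) 119 members, of which 53 were among the 63, so the membership of single genes depended on single libraries. TMM scaling kept 60 of the 63. In KRAB 1 member was higher and 2 lower; with the filter of the rule 3 were higher, without a filter 20 were higher and 6 lower, and leaving out a KRAB library gave 0 to 6 higher and 0 to 3 lower. In that unfiltered fit 24782 genes were tested and 920 were higher. Against DMSO, 23 members were called at the low dose, 13 with DESeq2, 42 without a filter and 9 to 18 without 1 library. MORF2 kept its direction and its side of the threshold in all alternatives.

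With the replicate number as a block, the KRAB fit called 0 members higher, since AT1G80130 moved to an adjusted p of 0.0607, and the log2 fold changes of AT4G40000 and WRKY40 changed sign, to -0.008 and 0.066. Whether the numbers pair the libraries is not known. The replicate differences of 10 pairs of groups correlated at -0.12 to 0.07, which shows no strong shared shift but cannot decide this. Values that changed sign without 1 library, in genes that did not pass, were those of AT3G20395 (-0.254 to 0.31), WRKY40 (-0.262 to 0.115), AT4G33180 (-0.072 to 0.303), AT4G40000 (-0.093 to 0.092) and FTM1 (-0.165 to 0.964). The cause of these changes was not tested. Among 171 alternative values of 19 named members, 141 kept direction and call. The filter limited the test to 41 members, since 22 did not have more than 2 CPM in at least 9 libraries.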
